A study of Mus musculus with 18 samples.

Results

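The 34 genes described here encode the enzymes of glycolysis, the lactate and pyruvate branch point behind it, and the oxygen-sensing pathway with some of its targets. They were taken by gene symbol from the deposited count tables, where all 34 were found among 46078 genes, and all 34 passed the filter on low counts in each fit. Regulatory T cells (Tregs) are CD4 T cells that depend on the transcription factor Foxp3, restrain immune responses and gather in wounded tissue.

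Tregs were sorted by flow cytometry from male Foxp3(DTR/GFP) mice, in which Foxp3 drives a diphtheria toxin receptor and GFP. All groups were of this strain and aged 10 weeks, and bulk RNA-seq libraries were made from them. The injured groups were bone with a cranial defect, muscle with a volumetric loss of the quadriceps, skin with full-thickness punch wounds, and heart with a myocardial infarction made by tying the left coronary artery. Injured tissue was taken on day 7, with 3 libraries per tissue, each from 3 pooled mice. The control was spleen of uninjured mice, with 6 libraries. Neither the same tissues without injury nor spleens of injured mice were analysed here, so injury and tissue cannot be told apart. Library names came in a pair of styles, Endo (skin 1 to 3, heart 1 and spleen 1 to 3) and Tregs (all others), and the style was a term of the model. Fitted differences of skin therefore rest on spleen 1 to 3, and those of bone and muscle on spleen 4 to 6. In fits without spleen 1 and 2, spleen 3 is the one Endo library of spleen left, so skin differences then rest on 1 control library, assumed to vary like the others. The columns of 2 bone libraries carried no replicate number matching a label, and they are called b and c.

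Glycolysis splits glucose into pyruvate and gains ATP without oxygen. Lactate dehydrogenase turns pyruvate into lactate, while pyruvate dehydrogenase kinases hold pyruvate back from the mitochondria. When oxygen is plentiful, prolyl hydroxylases (Egln genes) mark the HIF alpha subunit for destruction by the VHL ubiquitin ligase. When oxygen is scarce, HIF alpha joins its partner Arnt and binds DNA at hypoxia response elements with the core ACGTG or GCGTG. In T cells, antigen receptor and growth signals raise HIF and glycolysis as well.

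Total counts per library ran between 11588253 and 22635760 in bone, between 11582403 and 13358526 in muscle, between 8375212 and 11907745 in skin and between 11139361 and 12974890 in heart, against 5970346 to 15756884 in spleen. Foxp3, Il2ra and the other 8 Treg and T cell genes checked were detected in every group, with a summed level of 6620 to 9549 CPM (counts scaled to library size with TMM factors) over the injured tissues, against 4757 to 5712 CPM in spleen. Single genes differed in direction. By the test described below, bone had 4 of the 10 higher and 1 lower, muscle 5 higher, skin 5 higher and 2 lower, and heart 3 higher. Of all genes, 14.8%, 25.5%, 27.8% and 20.3% were called in the same order. Cd3e was at 329 to 376.5 CPM in skin, against 362.5 to 624 CPM in spleen. Markers of other cells had far lower sums. Skeletal muscle markers summed to 95.8 CPM in muscle 2 and to at most 7.70 CPM in any other library. Macrophage markers summed to 70.1 CPM in heart 1, against 21.6 to 41.6 CPM in spleen, and fibroblast markers to 107.6 CPM in skin 3, against 0 to 14.4 CPM in spleen. B cell markers summed to 59.1 to 83.9 CPM in bone, to 20.6 to 56.8 in heart and to at most 16.7 in muscle and 15.9 in skin, against 43.7 to 125.6 CPM in spleen. Cell cycle genes moved with the tissues too. Their summed level lay between 1180 and 1252 CPM in bone, between 1462 and 2328 in muscle, between 1588 and 1640 in skin and between 963 and 1860 in heart, against 257 to 842 CPM in spleen. Ribosomal RNA genes took 0.169 to 0.472% of counts in skin, against 0.834 to 3.16% in spleen 1 to 3, and protein-coding genes took 69.3 to 75.5% in skin, against 59.1 to 70.1% in spleen 1 to 3. In bone and muscle, ribosomal RNA genes took 0.0407 to 0.0888%, against 0.0121 to 0.0689% in spleen 4 to 6, and protein-coding genes 75.2 to 79.3%, against 65.5 to 72.3% in spleen 4 to 6. Whether any of these takes part in the differences below was not tested.

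The promoter stretches of members that the results turn on are shown because they carry the HIF core. RefSeq promoters (GRCm38.p6) matched 33 of 34 members, with Ero1l listed there as Ero1a, and Bnip3l had no entry. The 250 bases before the most upstream start of each gene were searched on both strands for ACGTG and GCGTG, which can overlap each other. A match on the other strand reads CACGT or, for the second core, it reads CACGC. Each stretch is 60 bases on the gene's strand, 5′ to 3′, with matches in capitals.
Hk2 (chr6:82774475-82774534, minus strand): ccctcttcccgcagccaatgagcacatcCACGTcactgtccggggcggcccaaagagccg
Pgk1 (chrX:106186941-106187000, plus strand): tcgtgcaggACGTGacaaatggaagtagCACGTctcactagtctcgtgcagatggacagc
Ldha (chr7:46845742-46845801, plus strand): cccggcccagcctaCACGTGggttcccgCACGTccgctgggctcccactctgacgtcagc
Hif1a (chr12:73907769-73907828, plus strand): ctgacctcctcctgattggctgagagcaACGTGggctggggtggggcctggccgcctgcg
Egln3 (chr12:54204065-54204124, minus strand): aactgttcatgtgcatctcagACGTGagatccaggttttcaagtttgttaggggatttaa
Bnip3 (chr7:138909582-138909641, minus strand): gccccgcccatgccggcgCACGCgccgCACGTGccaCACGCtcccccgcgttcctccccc
Ero1l (chr14:45318604-45318663, minus strand): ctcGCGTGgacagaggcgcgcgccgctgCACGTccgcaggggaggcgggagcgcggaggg
Egln2 (chr7:27166819-27166878, minus strand): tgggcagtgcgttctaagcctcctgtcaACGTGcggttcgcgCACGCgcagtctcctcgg
P4ha1 (chr10:59323236-59323295, plus strand): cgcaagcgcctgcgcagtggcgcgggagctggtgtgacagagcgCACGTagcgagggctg
The first 7 genes were higher than in spleen in all 4 tissues. Egln2 was called in no tissue and P4ha1 in skin alone, yet both hold the core as well. ACGTG also stood in this window of Pfkm, Pfkfb3, Pgam1, Pdk3, Egln1 and Ankrd37, not printed here, and none of these was called in all 4 tissues. ACGTG was present in 15 of 33 members (45.45%), against 16.57% of 32851 windows of the same length before all RefSeq starts. GCGTG was present in 18 of 33 members (54.55%), against 28.16% of all windows, and one or the other in 25 of 33 members (75.76%), against 38.60% of all windows. Counted on both strands, Ldha had 5 ACGTG matches and Hif1a 3. Both hold CACGTG, which reads the same on both strands and counts as a match on each, so their separate sites are fewer. Tpi1, Pkm, Aldoa and Mxi1, also higher in all 4 tissues, held neither core in this window. Pkm, Aldoa and Mxi1 hold ACGTG before another of their RefSeq starts. A match describes the letters only.

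Measured against spleen Tregs, Tregs of injured tissue held more RNA of most of the glycolytic steps from hexokinase 2 to lactate dehydrogenase A, more Hif1a and far more Egln3, and less Ldhb and, outside bone, less Pdk1. In bone, 16 of 34 members passed the test (15 higher and 1 lower), against 14.8% of all genes tested. In muscle 19 passed (16 higher and 3 lower), against 25.5% of all genes, in skin 23 (20 higher and 3 lower), against 27.8%, and in heart 14 (12 higher and 2 lower), against 20.3%. The test was the quasi-likelihood test of edgeR at a Benjamini-Hochberg adjusted p below 0.05 over all genes tested. The ± after a log2 difference is an approximate standard error (SE), the absolute difference divided by the square root of the test's F statistic. The median log2 difference over members was 0.51 for bone, 0.60 for muscle, 0.89 for skin and 0.41 for heart, against 0.01, -0.01, -0.07 and -0.03 over all genes tested in the same order. All 4 comparisons share the spleen libraries. Within libraries of 1 naming style, bone had 14 higher and 2 lower, muscle 18 and 2, skin 20 and 2, and heart 10 and 2. Among all genes, these fits called 2111 of 15047 in bone and 3608 of 15047 in muscle. In skin they called 5080 of 13164, against 4342 of 15617 in the main fit, and in heart 2037 of 14890, against 3043 of 15025. These are bulk libraries, so that a change in the share of cells that carry an RNA and a change in RNA per cell cannot be told apart. Nothing says that the spleen libraries came from separate mice, so p-values cover only the spread among these libraries.

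**Figure D1:**
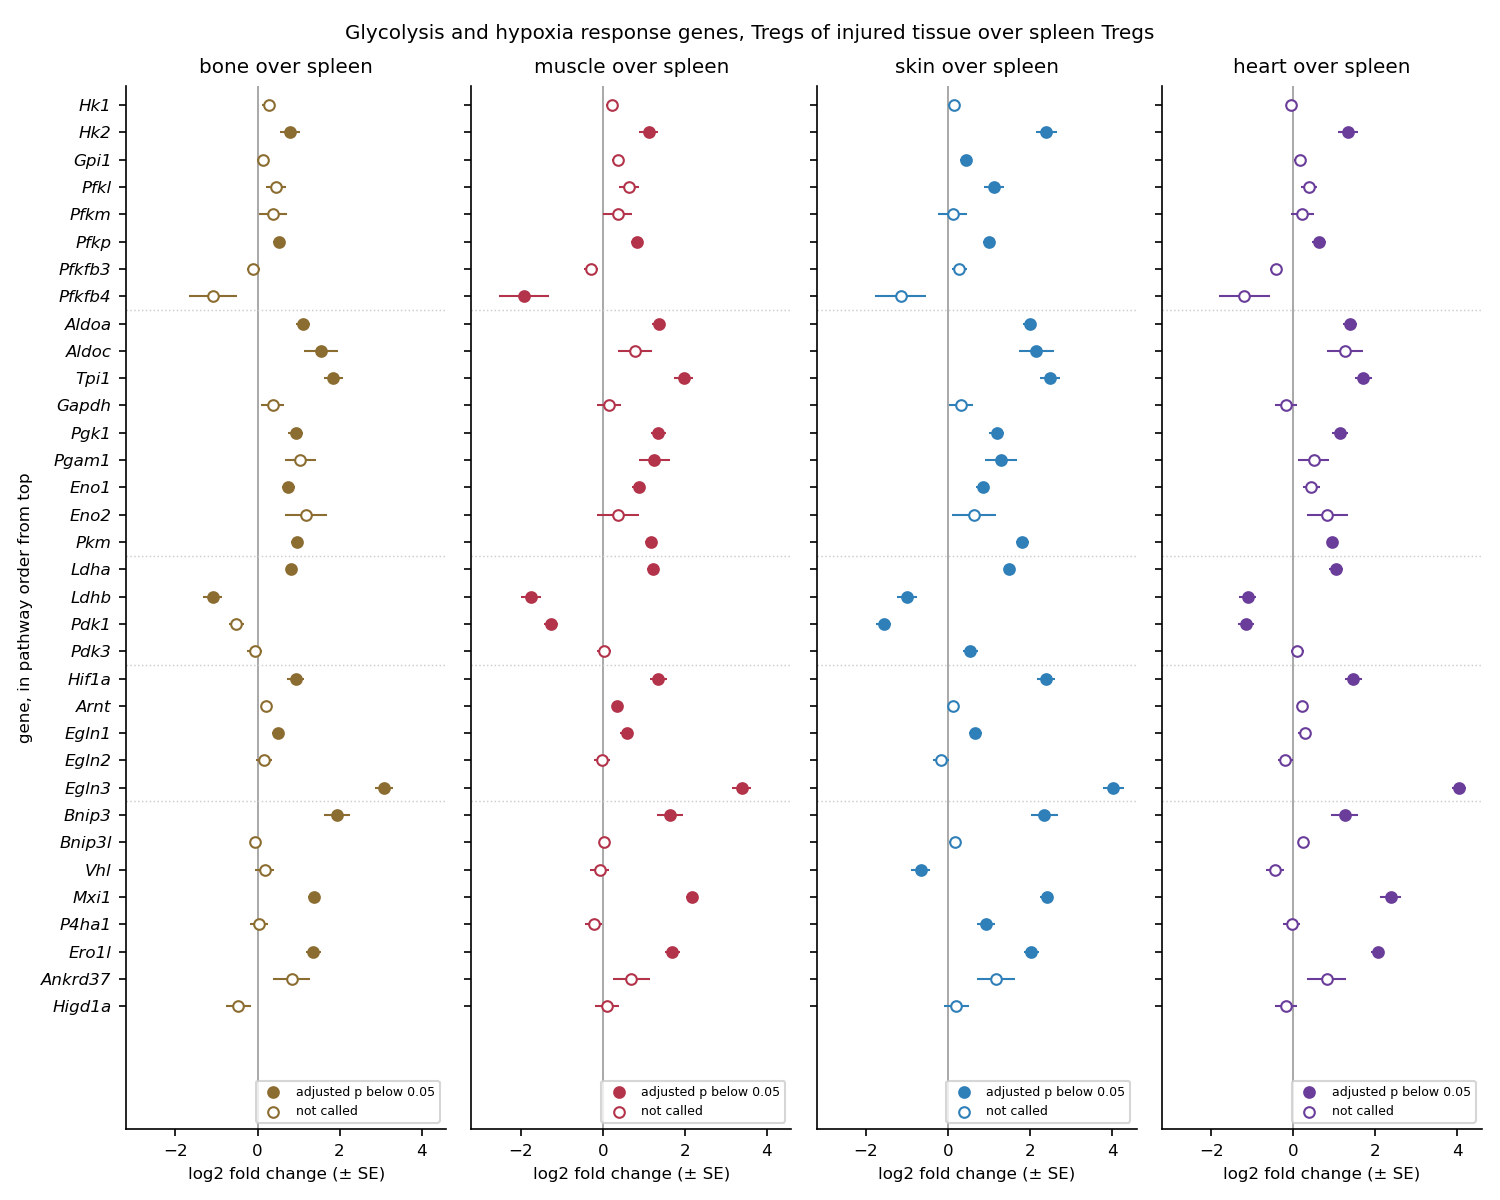
Log2 fold change over spleen (x axis, points with SE bars) of the 34 genes in pathway order (y axis), in bone, muscle, skin and heart Tregs. Filled points passed adjusted p below 0.05 and dotted lines part upper glycolysis, lower glycolysis, lactate and pyruvate, HIF with its hydroxylases, and the other hypoxia genes. Egln3 lies farthest to the right in every panel, at 3.08 to 4.04, and Ldhb lies left of 0 in every panel.

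The first 8 genes trap glucose and carry it to fructose bisphosphate. In this group bone had 2 higher, muscle 2 higher and 1 lower, skin 4 higher and heart 2 higher. In bone, muscle and heart these counts lie within 1 gene of what the share called among all genes would give. Hk2 (hexokinase 2, ENSMUSG00000000628, chr6:82725025-82774454 on the minus strand), the inducible hexokinase that docks on mitochondria, was the member of this group that was higher in all 4 tissues together with Pfkp. Hk2 had 15.6, 13.7 and 11.6 CPM in bone, 20.4, 14.02 and 16.8 in muscle, 36.3, 30.2 and 27.3 in skin and 19.2, 18.6 and 14.5 in heart, against 4.63 to 8.16 CPM with a median of 7.09 in spleen. Skin was highest, and no injured library overlapped the spleen range. Its log2 difference from spleen was 0.80 ± 0.24 in bone (adjusted p = 0.0257), 1.12 ± 0.24 in muscle (adjusted p = 0.00131), 2.39 ± 0.26 in skin (adjusted p = 1.81e-07) and 1.33 ± 0.24 in heart (adjusted p = 0.00146). In bone the call did not hold without bone 1 (adjusted p = 0.103), bone b (0.061), spleen 5 (0.0561) or spleen 6 (0.0648), nor within 1 naming style (0.0589). Hk1, the constitutive hexokinase, had 118 ± 6.56 CPM for bone, 115 ± 23.1 for muscle, 104 ± 16.9 for skin and 92.4 ± 11.6 for heart, against 94.3 ± 3.50 for spleen (SD). Its log2 differences, 0.27 ± 0.15 for bone, 0.23 ± 0.15 for muscle, 0.15 ± 0.15 for skin and -0.04 ± 0.13 for heart, did not pass the test, though muscle did without muscle 1 (adjusted p = 0.0487). Per kilobase of merged exons, Hk2 made up 14.1 ± 1.09% of the sum of Hk1 and Hk2 for bone, 18.1 ± 5.94% for muscle, 30.1 ± 0.45% for skin and 21.4 ± 4.27% for heart, against 9.29 ± 1.54% in spleen (SD). On this scale Hk1 remained the more abundant hexokinase RNA in every group. Such shares depend on the length used. Merged exons of Hk1 span 8532 bases and its longest protein-coding transcript 4278, against 5969 and 5513 for Hk2. Shares by transcript length were not computed, here or for the other isozymes below.

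Phosphofructokinase, the committed step, is built from liver, muscle and platelet subunits. Pfkp, the platelet subunit, had 149, 119 and 129 CPM in bone, 183, 149 and 159 in muscle, 196, 156 and 168 in skin and 166, 143 and 97.97 in heart, against 78.1 to 101 CPM with a median of 88.96 in spleen. Only heart overlapped spleen, through heart 3. Its log2 difference was 0.52 ± 0.14 in bone (adjusted p = 0.0107), 0.83 ± 0.14 in muscle (adjusted p = 8.54e-05), 1.0 ± 0.14 in skin (adjusted p = 7.43e-06) and 0.62 ± 0.16 in heart (adjusted p = 0.0143). In bone the call was lost without bone 1 (adjusted p = 0.0769) or spleen 4 (0.0588), and in heart without heart 1 (0.165) or heart 2 (0.0733) and within 1 naming style (0.191). The last bases of the Pfkp transcript also lie in the overlapping gene Pitrm1, which shares 17.07% of its 50-base words. Pfkl, the liver subunit, had 43.2, 41.03 and 25.8 CPM in bone, 37.8, 45.97 and 41.2 in muscle, 92.7, 49.8 and 54.3 in skin and 44.7, 31.8 and 31.1 in heart, against 20.6 to 35.6 CPM with a median of 28.7 in spleen. Skin 1 was the highest library, and skin and muscle lay above the spleen range. Pfkl passed the test in skin only, at 1.13 ± 0.25 (adjusted p = 0.00135), with 0.63 ± 0.24 (adjusted p = 0.0614) for muscle, where it passed without spleen 3 (adjusted p = 0.0367) or without spleen 1 and 2 (0.0437). Pfkm, the muscle subunit, stayed at 4.15 to 11.8 CPM in all libraries and was not called. Gpi1, glucose phosphate isomerase, had 209 ± 20.03 CPM for bone, 245 ± 28.5 for muscle, 321 ± 47.6 for skin and 226 ± 20.2 for heart, against 209 ± 35.5 for spleen (SD). It passed in skin, at 0.45 ± 0.15 (adjusted p = 0.0248), and lost that call without skin 1 (adjusted p = 0.105) or spleen 3 (0.106) and with upper-quartile scaling (0.0736). In muscle Gpi1 differed by 0.38 ± 0.15 (adjusted p = 0.0628) and passed without muscle 1 (adjusted p = 0.0248) or spleen 3 (0.027).

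The bifunctional enzymes of the Pfkfb family set the level of the sugar phosphate that switches phosphofructokinase on. Pfkfb3, the form with strong kinase activity, had 58.8 ± 9.30 CPM for bone, 51.5 ± 10.5 for muscle, 56.3 ± 4.61 for skin and 41.4 ± 2.42 for heart, against 53.8 ± 10.9 for spleen (SD) and was called in no tissue. Its log2 differences were -0.10 ± 0.17 for bone, -0.28 ± 0.17 for muscle, 0.28 ± 0.17 for skin and -0.43 ± 0.15 for heart. Pfkfb4 had 2.83, 2.03 and 1.33 CPM in bone, 0.589, 1.28 and 1.57 in muscle, 1.38, 1.01 and 2.17 in skin and 1.88, 0.236 and 2.99 in heart, against 2.25 to 4.85 CPM with a median of 3.86 in spleen. These are low levels, and the muscle and skin libraries all lay below the lowest spleen library. Pfkfb4 differed by -1.07 ± 0.59 in bone (adjusted p = 0.25), -1.92 ± 0.61 in muscle (adjusted p = 0.0236), -1.15 ± 0.62 in skin (adjusted p = 0.179) and -1.19 ± 0.63 in heart (adjusted p = 0.204). The muscle call did not hold without muscle 1 (adjusted p = 0.0805), spleen 4 (0.0619) or spleen 6 (0.0546). In every tissue the fitted Pfkfb4 difference was below 0.

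From aldolase to pyruvate kinase, 6 of 9 members were higher in bone and 6 in muscle, with 7 in skin and 4 in heart, and none was lower. Of all genes tested, 14.8%, 25.5%, 27.8% and 20.3% were called in bone, muscle, skin and heart. The median log2 difference of the 9 was 1.05 for bone, 1.18 for muscle, 1.30 for skin and 0.95 for heart. Over all genes tested it was 0.01, -0.01, -0.07 and -0.03 in the same order. Aldoa (aldolase A, ENSMUSG00000030695, chr7:126795234-126800751 on the minus strand) had 434, 373 and 277 CPM in bone, 409, 464 and 414 in muscle, 881, 695 and 736 in skin and 371, 470.3 and 556 in heart, against 154 to 213 CPM with a median of 171 in spleen. All injured libraries lay above spleen, and skin stood above the rest. On the log2 scale Aldoa differed by 1.11 ± 0.16 in bone (adjusted p = 2.57e-05), 1.36 ± 0.16 in muscle (adjusted p = 1.04e-06), 1.99 ± 0.17 in skin (adjusted p = 2.89e-09) and 1.38 ± 0.17 in heart (adjusted p = 5.38e-05). Aldoc, the minor aldolase of these cells, had 9.72, 7.37 and 10.00 CPM in bone, 3.79, 7.24 and 4.80 in muscle, 22.1, 18.3 and 17.1 in skin and 9.69, 10.5 and 4.56 in heart, against 1.14 to 5.46 CPM with a median of 3.98 in spleen. Skin reached a mean of 19.1 ± 2.59 CPM, against 3.65 ± 1.58 CPM in spleen (SD), and muscle and heart overlapped spleen. Aldoc differed by 1.55 ± 0.41 in bone (adjusted p = 0.011), 0.78 ± 0.41 in muscle (adjusted p = 0.175), 2.16 ± 0.42 in skin (adjusted p = 0.00043) and 1.26 ± 0.44 in heart (adjusted p = 0.0579). The skin value was 2.86 without spleen 1 and 2. The bone call was lost without spleen 4 (adjusted p = 0.0518), and heart passed without heart 3 (0.037) or spleen 5 (0.046).

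Triose phosphate isomerase interconverts the products of the split sugar. Tpi1 (ENSMUSG00000023456, chr6:124810586-124814296 on the minus strand) had 95.9, 74.3 and 57.4 CPM in bone, 79.4, 96.4 and 72.4 in muscle, 209.6, 138 and 148 in skin and 76.4, 67.7 and 86.7 in heart, against 13.9 to 32.6 CPM with a median of 25.5 in spleen. No injured library overlapped spleen, and skin 1 was highest. Tpi1 differed by 1.85 ± 0.23 in bone (adjusted p = 8.39e-06), 1.98 ± 0.23 in muscle (adjusted p = 2.26e-06), 2.48 ± 0.24 in skin (adjusted p = 9.9e-08) and 1.70 ± 0.21 in heart (adjusted p = 5.91e-05), which corresponds to 3.61-fold, 3.94-fold, 5.60-fold and 3.26-fold in the same order. Pgk1, phosphoglycerate kinase, the first ATP-forming step, had 29.9, 24.9 and 24.5 CPM in bone, 42.5, 33.01 and 31.01 in muscle, 38.5, 40.8 and 44.2 in skin and 28.4, 36.3 and 36.9 in heart, against 12.7 to 18.96 CPM with a median of 15.8 in spleen. Again the injured libraries all lay above spleen, with muscle 1 and skin at the top. Pgk1 differed by 0.94 ± 0.18 in bone (adjusted p = 0.000853), 1.36 ± 0.19 in muscle (adjusted p = 7.19e-06), 1.19 ± 0.19 in skin (adjusted p = 3.61e-05) and 1.15 ± 0.20 in heart (adjusted p = 0.000874). Reads of Pgk1 are hard to place, because 67.96% of its 50-base words also occur in other annotated genes, chiefly the pseudogene Pgk1-rs7.

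Pgam1, phosphoglycerate mutase, had 8.85, 7.65 and 11.4 CPM in bone, 14.6, 11.5 and 6.04 in muscle, 18.8, 12.3 and 11.5 in skin and 6.96, 4.64 and 9.12 in heart, against 3.30 to 6.93 CPM with a median of 5.12 in spleen. Muscle 3 and heart 2 fell within the spleen range, and bone and skin lay above it. Pgam1 differed by 1.05 ± 0.38 in bone (adjusted p = 0.0642), 1.26 ± 0.38 in muscle (adjusted p = 0.0164), 1.30 ± 0.39 in skin (adjusted p = 0.0141) and 0.50 ± 0.38 in heart (adjusted p = 0.386). The muscle call was lost without muscle 1 (adjusted p = 0.0873), spleen 4 (0.0724) or spleen 6 (0.0645), the skin call without skin 1 (0.076) or spleen 3 (0.0683), and bone passed without spleen 5 (0.0228). Without spleen 1 and 2 the skin difference was 1.92. Eno1, the main enolase, had 138 ± 19.6 CPM for bone, 149 ± 11.6 for muscle, 221 ± 10.01 for skin and 128 ± 31.8 for heart, against 101 ± 28.1 for spleen (SD). Only skin cleared the spleen range. Eno1 differed by 0.76 ± 0.16 in bone (adjusted p = 0.00143), 0.87 ± 0.16 in muscle (adjusted p = 0.000199), 0.84 ± 0.16 in skin (adjusted p = 0.00024) and 0.44 ± 0.20 in heart (adjusted p = 0.151). In bone the call depended on the naming style term (adjusted p = 0.1 without it), and in heart Eno1 passed without spleen 1 and 2 (0.0495). Eno2, the neuronal enolase, stayed at 1.61 to 6.29 CPM and was not called.

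Pkm (ENSMUSG00000032294, chr9:59656368-59679375 on the plus strand), the pyruvate kinase gene, had 623, 497 and 436 CPM in bone, 528, 676 and 609 in muscle, 1160.0, 1118 and 998 in skin and 512, 505 and 618 in heart, against 243 to 333 CPM with a median of 284 in spleen. Skin exceeded every other library, and no injured library overlapped spleen. Pkm differed by 0.96 ± 0.14 in bone (adjusted p = 4.6e-05), 1.18 ± 0.15 in muscle (adjusted p = 1.85e-06), 1.82 ± 0.15 in skin (adjusted p = 2.19e-09) and 0.95 ± 0.14 in heart (adjusted p = 0.000246). Counts per gene cannot separate the M1 and M2 splice forms. Gapdh, the glyceraldehyde phosphate dehydrogenase, was listed at only 13.7 to 35.6 CPM in all libraries and was called in no tissue, with log2 differences of 0.37 ± 0.28 for bone, 0.15 ± 0.28 for muscle, 0.32 ± 0.29 for skin and -0.18 ± 0.27 for heart. Of its 50-base words, 82.49% also occur in other annotated genes, and 135 such copies are rows of the tables. How much Gapdh RNA was counted on those copies was not tested. The same limit holds for Eno1 (72.19%), Bnip3 (62.45%), Pgam1 (41.48%), Higd1a (36.56%), Pkm (34.41%), Ldhb (27.01%), Gpi1 (25.26%) and Bnip3l (23.43%). How reads with several matches were treated is not given in the sources used here.

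**Figure D2:**
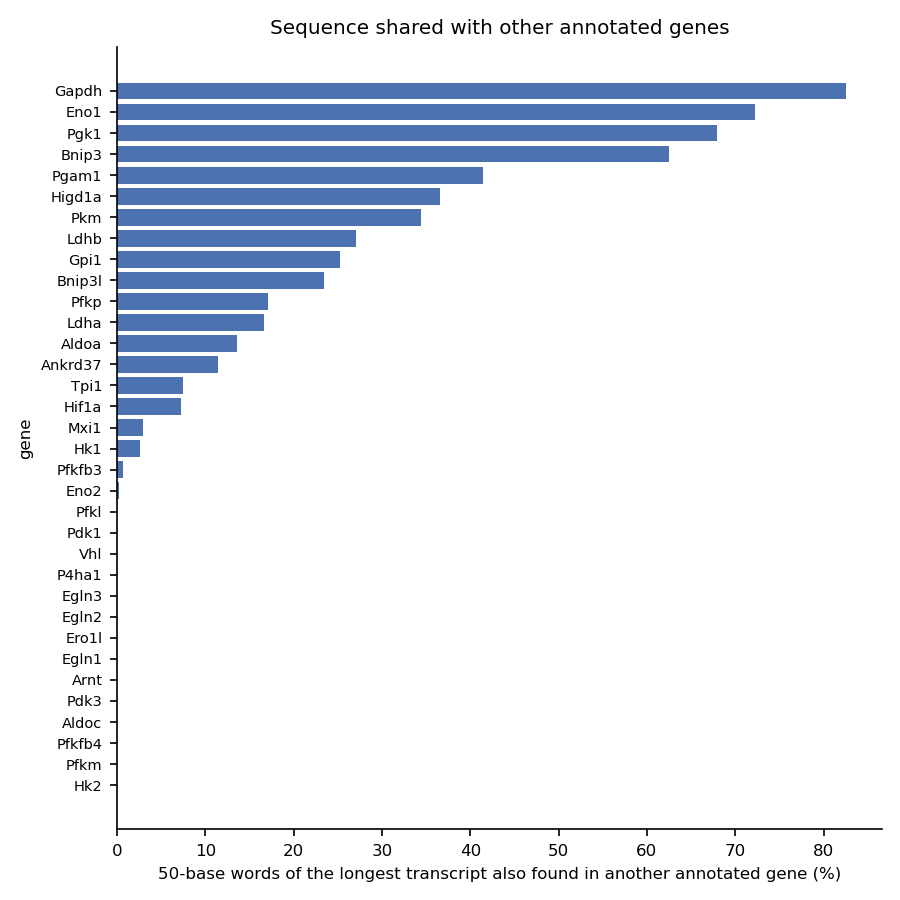
Share of the 50-base words of each member's longest protein-coding transcript that also occur in another annotated gene (x axis, percent), by gene (y axis). Gapdh is at 82.49%, Eno1 at 72.19% and Pgk1 at 67.96%, while Hk2, Pdk1 and Egln3 are at 0.

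At the branch behind pyruvate, lactate dehydrogenase showed opposite differences in its subunits. Ldha (ENSMUSG00000063229, chr7:46841475-46855627 on the plus strand), the subunit that favours lactate, had 652, 545 and 567 CPM in bone, 871, 754 and 709 in muscle, 971, 973 and 865 in skin and 480.5, 714 and 918 in heart, against 281 to 364 CPM with a median of 337 in spleen. All injured libraries lay above the spleen maximum. Ldha differed by 0.82 ± 0.14 in bone (adjusted p = 0.000125), 1.23 ± 0.14 in muscle (adjusted p = 3.94e-07), 1.5 ± 0.14 in skin (adjusted p = 1.55e-08) and 1.03 ± 0.18 in heart (adjusted p = 0.000854). Ldhb (ENSMUSG00000030246, chr6:142490249-142507957 on the minus strand), the subunit that favours pyruvate, had 15.8, 12.9 and 15.6 CPM in bone, 8.41, 8.82 and 10.8 in muscle, 12.2, 19.97 and 11.2 in skin and 11.8, 12.7 and 18.2 in heart, against 24.9 to 36.2 CPM with a median of 29.2 in spleen. All injured libraries lay below the spleen minimum, muscle farthest. Ldhb differed by -1.09 ± 0.23 in bone (adjusted p = 0.00193), -1.75 ± 0.24 in muscle (adjusted p = 8.38e-06), -1.0 ± 0.24 in skin (adjusted p = 0.00282) and -1.11 ± 0.21 in heart (adjusted p = 0.00157), and the skin difference was -0.77 ± 0.35 and not called without spleen 1 and 2 (adjusted p = 0.147). Per kilobase, Ldhb made up 5.04 ± 0.40% of lactate dehydrogenase RNA for bone, 2.51 ± 0.57% for muscle, 3.13 ± 0.88% for skin and 4.17 ± 0.67% for heart, against 16.1 ± 0.88% in spleen (SD). The highest injured library reached 5.49% and the lowest spleen library 14.6%.

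Pyruvate dehydrogenase kinases close the entry of pyruvate into the citric acid cycle, and Pdk1 is a textbook HIF target. Here Pdk1 (ENSMUSG00000006494, chr2:71873224-71903858 on the plus strand) was lower. It had 63.3, 93.4 and 77.3 CPM in bone, 43.8, 48.5 and 46.6 in muscle, 42.1, 39.5 and 49.2 in skin and 48.1, 49.7 and 60.2 in heart, against 88.2 to 151 CPM with a median of 115 in spleen. Muscle, skin and heart lay below every spleen library, and bone b lay inside the spleen range. Pdk1 differed by -0.51 ± 0.18 in bone (adjusted p = 0.053), -1.26 ± 0.18 in muscle (adjusted p = 1.35e-05), -1.57 ± 0.18 in skin (adjusted p = 6.04e-07) and -1.16 ± 0.19 in heart (adjusted p = 0.000694). In bone, 11 of 20 alternative fits passed the threshold, among them those without bone b (adjusted p = 0.0311), without spleen 3 (0.0136) and without spleen 1 and 2 (0.0277). Pdk3 had 31.7 ± 3.60 CPM for bone, 33.8 ± 7.00 for muscle, 49.9 ± 6.13 for skin and 36.1 ± 5.28 for heart, against 33.2 ± 3.28 for spleen (SD). It was called in skin only, at 0.54 ± 0.18 (adjusted p = 0.0284), and not without skin 1 (adjusted p = 0.0683), skin 2 (0.112), spleen 1 (0.0644) or spleen 2 (0.0558). As a share of Pdk1 and Pdk3 per kilobase, Pdk1 took 44.6 ± 6.70% for bone, 31.5 ± 5.25% for muscle, 22.5 ± 4.28% for skin and 32.5 ± 0.64% for heart, against 53.6 ± 6.03% in spleen (SD).

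**Figure D3:**
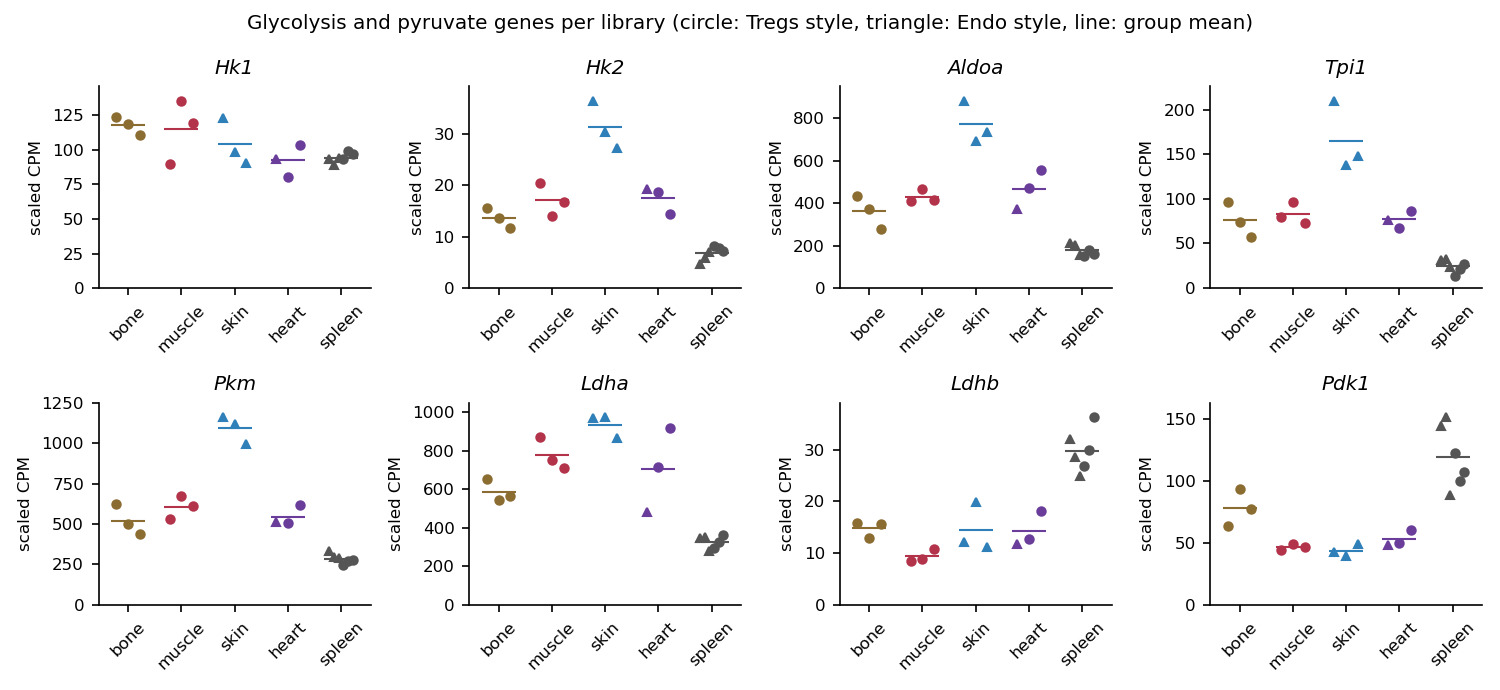
TMM-scaled CPM (y axis, from 0) of 8 genes in each library by group (x axis), with circles for the Tregs and triangles for the Endo naming style and a line at the group mean. Hk1 spans 80.5 to 135.4 CPM, with muscle, skin and heart overlapping spleen, Ldhb and Pdk1 are highest in spleen, and the other 5 genes are lowest in spleen.

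**Figure D4:**
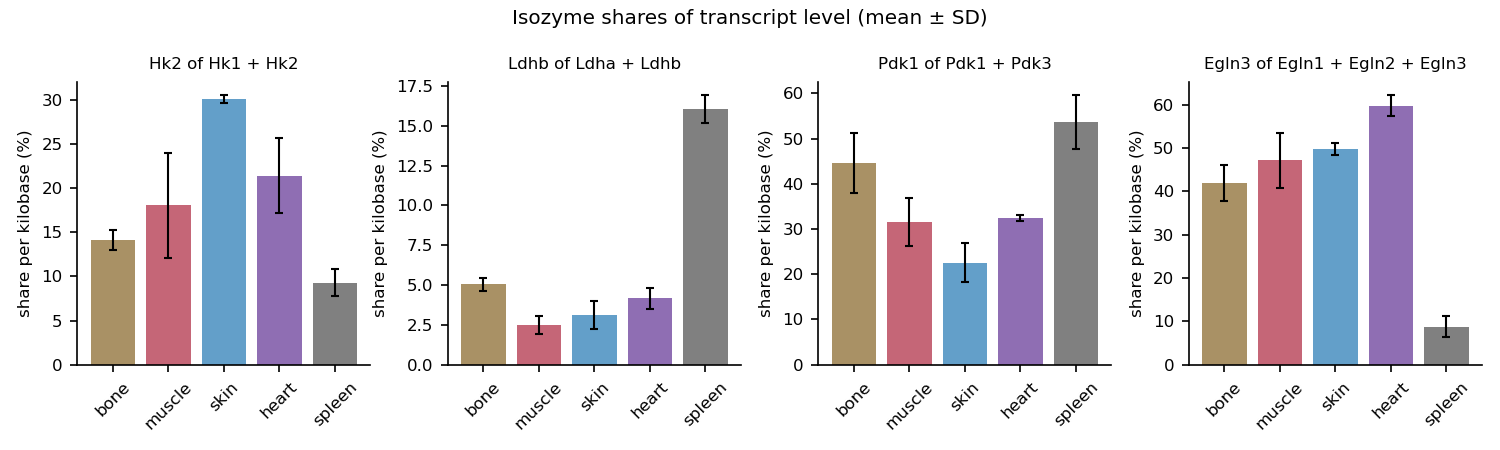
Share of the isozyme sum per kilobase (y axis, percent, mean with SD bars) by group (x axis) for Hk2, Ldhb, Pdk1 and Egln3, over 3 libraries per injured tissue and 6 of spleen. Hk2 and Egln3 take their smallest shares in spleen, at 9.29% and 8.76%, and Ldhb and Pdk1 their largest, at 16.1% and 53.6%.

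In the oxygen-sensing pathway, Hif1a and Egln3 were higher in all 4 tissues. Of its 6 members (Hif1a, Arnt, Egln1, Egln2, Egln3 and Vhl), bone had 3 higher, muscle 4, skin 3 and heart 2, and Vhl was lower in skin. Among all genes tested, 14.8%, 25.5%, 27.8% and 20.3% were called in bone, muscle, skin and heart, and the heart count lies near that share. Hif1a (ENSMUSG00000021109, chr12:73901375-73947530 on the plus strand), the oxygen-labile HIF subunit, had 1148, 954 and 1007 CPM in bone, 1208, 1517 and 1428 in muscle, 1314, 2081 and 1933 in skin and 1239, 1405 and 1038 in heart, against 291 to 638 CPM with a median of 388 in spleen. All injured libraries lay above spleen, and within spleen the 3 libraries 1, 2 and 4 were lowest. The log2 difference was 0.93 ± 0.21 in bone (adjusted p = 0.00288), 1.35 ± 0.21 in muscle (adjusted p = 4.13e-05), 2.39 ± 0.21 in skin (adjusted p = 2.29e-08) and 1.47 ± 0.21 in heart (adjusted p = 0.000213). Arnt, the constant partner, had 97.5 ± 2.15 CPM for bone, 108 ± 2.47 for muscle, 95.2 ± 7.62 for skin and 98.8 ± 11.6 for heart, against 85.2 ± 3.75 for spleen (SD). It passed in muscle alone, at 0.35 ± 0.12 (adjusted p = 0.0348), and lost that call without any 1 of the 3 muscle libraries (adjusted p = 0.0579 to 0.0828), without spleen 4 (0.0952) and without spleen 6 (0.0596). RNA levels of Hif1a do not report the stability of its protein.

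The prolyl hydroxylases differed among themselves. Egln3 (ENSMUSG00000035105, chr12:54178981-54203860 on the minus strand), a form that HIF itself induces, had 73.9, 49.1 and 59.7 CPM in bone, 54.6, 97.1 and 74.6 in muscle, 103, 95.7 and 85.9 in skin and 110.4, 103 and 111 in heart, against 4.80 to 8.36 CPM with a median of 6.47 in spleen. Every injured library exceeded the highest spleen library, with heart at the top and bone lowest among the tissues. The log2 difference was 3.08 ± 0.23 in bone (adjusted p = 2.87e-09), 3.39 ± 0.23 in muscle (adjusted p = 2.02e-10), 4.03 ± 0.25 in skin (adjusted p = 2.25e-11) and 4.04 ± 0.18 in heart (adjusted p = 4.47e-09), or 8.45-fold, 10.5-fold, 16.3-fold and 16.4-fold in the same order. Egln1, the main sensor under normal oxygen, had 73.4 ± 5.01 CPM for bone, 77.3 ± 12.1 for muscle, 91.02 ± 4.48 for skin and 65.6 ± 8.93 for heart, against 53.9 ± 7.85 for spleen (SD), and its log2 difference was 0.50 ± 0.15 in bone (adjusted p = 0.0287), 0.58 ± 0.15 in muscle (adjusted p = 0.00717), 0.66 ± 0.16 in skin (adjusted p = 0.00249) and 0.28 ± 0.16 in heart (adjusted p = 0.245). In bone that call was lost without bone 1 (adjusted p = 0.0632), bone c (0.0978), spleen 5 (0.0981) or spleen 6 (0.0817). Egln2 had 30.5 ± 2.26 CPM for bone, 26.8 ± 4.57 for muscle, 29.9 ± 2.85 for skin and 25.5 ± 6.60 for heart, against 30.03 ± 6.10 for spleen (SD) and was called in no tissue. Per kilobase, Egln3 supplied 41.9 ± 4.26% of prolyl hydroxylase RNA for bone, 47.2 ± 6.30% for muscle, 49.7 ± 1.44% for skin and 59.8 ± 2.48% for heart, against 8.76 ± 2.39% in spleen, where Egln1 supplied 53.3 ± 1.79% (SD). Vhl, the substrate receptor of the ubiquitin ligase, had 21.3 ± 3.27 CPM for bone, 17.8 ± 1.74 for muscle, 17.7 ± 3.31 for skin and 15.8 ± 3.15 for heart, against 23.1 ± 7.44 for spleen (SD). Its skin difference, -0.67 ± 0.24 (adjusted p = 0.0395), did not pass in 15 of 21 alternatives and was -0.09 without spleen 1 and 2 (adjusted p = 0.914), and it failed without any 1 library of skin 1 (0.223), skin 2 (0.0512), skin 3 (0.0893), spleen 1 (0.137), spleen 2 (0.281), spleen 4 (0.0584), spleen 5 (0.0577) or spleen 6 (0.0507).

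Among the 7 further hypoxia targets, Bnip3, Mxi1 and Ero1l were higher in all tissues, and P4ha1 in skin. Bnip3 (ENSMUSG00000078566, chr7:138890836-138909519 on the minus strand), a receptor that tags mitochondria for removal, had 17.99, 13.1 and 8.28 CPM in bone, 10.7, 12.4 and 9.18 in muscle, 24.6, 23.7 and 28.8 in skin and 9.22, 11.3 and 7.55 in heart, against 2.39 to 5.20 CPM with a median of 4.74 in spleen. Skin was highest and no injured library overlapped spleen. The log2 difference was 1.94 ± 0.32 in bone (adjusted p = 0.000125), 1.64 ± 0.32 in muscle (adjusted p = 0.000469), 2.35 ± 0.33 in skin (adjusted p = 7.6e-06) and 1.25 ± 0.33 in heart (adjusted p = 0.0161), and the heart call was lost without heart 2 (adjusted p = 0.0862) and within 1 naming style (0.0714). Its relative Bnip3l had 136 ± 19.1 CPM for bone, 143 ± 11.01 for muscle, 155 ± 5.04 for skin and 163 ± 7.22 for heart, against 138 ± 7.10 for spleen (SD) and was not called. Mxi1, a partner of Max that opposes Myc, had 96.9, 73.8 and 78.98 CPM in bone, 155, 142 and 138 in muscle, 144, 163 and 170.0 in skin and 237, 171 and 72.3 in heart, against 25.8 to 36.8 CPM with a median of 29.3 in spleen. Heart spread widely, from 72.3 CPM in heart 3 to 236.7 CPM in heart 1, but still above spleen. Mxi1 differed by 1.37 ± 0.15 in bone (adjusted p = 7.77e-07), 2.17 ± 0.15 in muscle (adjusted p = 4.01e-10), 2.41 ± 0.16 in skin (adjusted p = 6.18e-11) and 2.37 ± 0.26 in heart (adjusted p = 5.98e-05). Ero1l (ENSMUSG00000021831, chr14:45283087-45318771 on the minus strand), an oxidase of protein folding in the endoplasmic reticulum, had 102, 71.1 and 112 CPM in bone, 124, 108 and 127 in muscle, 135, 179 and 163 in skin and 158, 178 and 129 in heart, against 28.1 to 47.3 CPM with a median of 37.2 in spleen. Bone b was the lowest injured library and lay above every spleen library. Ero1l differed by 1.35 ± 0.18 in bone (adjusted p = 1.06e-05), 1.69 ± 0.18 in muscle (adjusted p = 2.9e-07), 2.03 ± 0.19 in skin (adjusted p = 1.9e-08) and 2.05 ± 0.17 in heart (adjusted p = 1.22e-06).

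P4ha1, the catalytic subunit of collagen prolyl hydroxylase, had 96.4 ± 18.1 CPM for bone, 80.4 ± 12.6 for muscle, 131 ± 19.1 for skin and 80.8 ± 6.13 for heart, against 80.3 ± 25.9 for spleen (SD). Its skin difference was 0.93 ± 0.22 (adjusted p = 0.00326), with groups that overlapped, and was 0.86 ± 0.35 and not called without spleen 1 and 2 (adjusted p = 0.11). The other tissues differed by 0.03 ± 0.22 for bone, -0.23 ± 0.22 for muscle and -0.04 ± 0.21 for heart. Ankrd37, an ankyrin repeat protein, had 4.53 ± 1.22 CPM for bone, 4.12 ± 0.871 for muscle, 5.85 ± 1.20 for skin and 4.80 ± 2.77 for heart, against 2.52 ± 0.503 for spleen (SD). It was not called, although its skin difference, 1.18 ± 0.46 (adjusted p = 0.0627), passed without spleen 6 (adjusted p = 0.045). Higd1a, a mitochondrial membrane protein, stayed at 6.15 to 15.5 CPM and was not called.

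**Figure D5:**
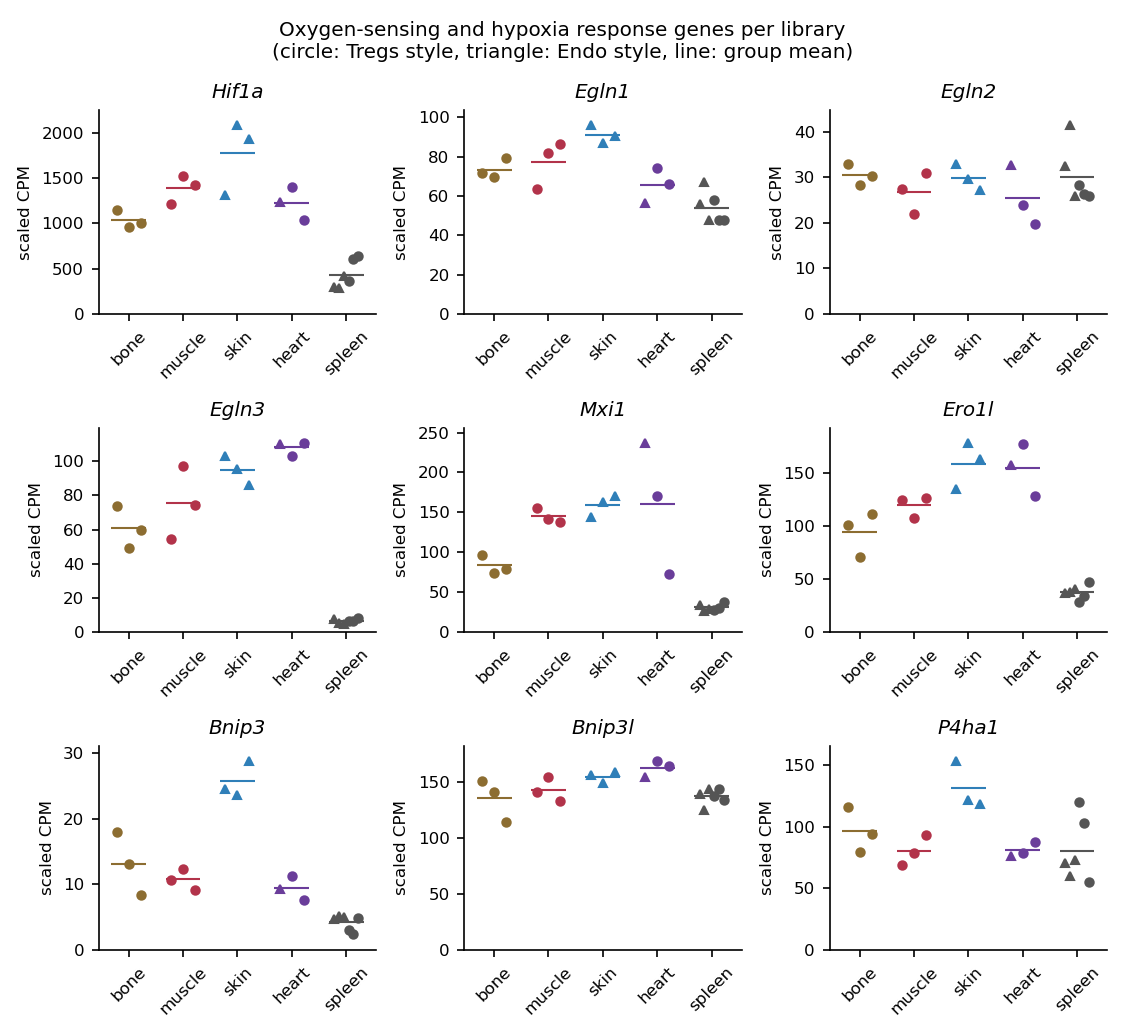
TMM-scaled CPM (y axis, from 0) of 9 oxygen-sensing and hypoxia response genes in each library by group (x axis), with circles for the Tregs and triangles for the Endo naming style and a line at the group mean. Egln3 is at 49.1 to 111 CPM in injured tissue and at 4.80 to 8.36 CPM in spleen, while Egln2 and Bnip3l were called in no tissue.

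Between tissues, bone over skin was the comparison with the most members called, 1 higher and 6 lower, against 8.11% of all genes called in either direction. Bone over muscle gave 1 member higher and 1 lower (4.86% of all genes), heart over bone 2 higher (6.68%) and heart over skin 2 lower (2.38%). The counts in bone over muscle and heart over bone are near the share of all genes. Muscle over skin gave 0 of 34 members by edgeR (1.31% of all genes), with 8 at an unadjusted p below 0.05, 4 by DESeq2 and 0 by limma-voom. Of 15617 genes, DESeq2 called 427 there and limma-voom 75. Heart over muscle gave 0 members by edgeR (0.452% of all genes), with 2 at an unadjusted p below 0.05 and 0 by DESeq2 and limma-voom. The median member difference was -0.36 in bone over skin and -0.40 in heart over skin, against 0.05 and 0.01 over all genes. Skin carried only the Endo style and bone and muscle only the Tregs style, so these differences also rest on the difference between the spleen styles. Hk2 differed by -1.60 ± 0.35 (adjusted p = 0.00573) in bone over skin and Hif1a by -1.45 ± 0.29 (adjusted p = 0.00346). Pkm, the member with the same call in all 16 alternatives run, differed by -0.86 ± 0.20 (adjusted p = 0.0105). Pdk1 was higher in bone than in skin, at 1.06 ± 0.25 (adjusted p = 0.0111), and than in muscle, at 0.75 ± 0.18 (adjusted p = 0.0181). Egln3 was higher in heart than in bone, at 0.89 ± 0.21 (adjusted p = 0.0123).

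The wider pathway behaved unevenly. Of 29 other genes of glycolysis and its branches, 20 were tested in bone, muscle and skin and 21 in heart. Bone, muscle and skin each had 1 higher and heart 3, and skin and heart each had 1 lower. In bone, muscle and skin these shares lay below those of all genes called (14.8%, 25.5% and 27.8%), and in heart the share was near that of all genes (20.3%). Pgm1, of the phosphoglucomutase family, was higher in muscle, at 0.73 ± 0.17 (adjusted p = 0.00304), and in skin, at 0.78 ± 0.18 (adjusted p = 0.00164). It was also higher in heart, at 0.73 ± 0.15 (adjusted p = 0.00434), where the call was lost within 1 naming style (0.0669). The gene higher in bone was Gbe1, the glycogen branching enzyme, at 0.64 ± 0.21 (adjusted p = 0.0444), a call lost in 12 of 20 alternatives, among them the fit without bone c (adjusted p = 0.291). In heart Pygl, the liver glycogen phosphorylase, stood at 2.71 ± 0.90 (adjusted p = 0.0477), a call lost in 13 of 21 alternatives, and Pfkfb1 stood at 1.65 ± 0.48 (adjusted p = 0.0248), a call lost in 4. Eno3, the muscle enolase, was lower in skin, at -1.51 ± 0.52 (adjusted p = 0.0319), and in heart, at -1.24 ± 0.42 (adjusted p = 0.0496), and these calls were lost in 6 and 13 of 21 alternatives. Of 14 tested genes of pyruvate dehydrogenase and of sugar, pyruvate and lactate transport, bone had 3 higher, muscle 5, skin 4 and heart 5, with 1 lower for muscle and 2 for skin. In bone this lies within 1 gene of the 14.8% called among all genes, while the other tissues lay above their shares (25.5%, 27.8% and 20.3%). Pdk2, another pyruvate dehydrogenase kinase, was lower in muscle, at -1.06 ± 0.35 (adjusted p = 0.0295), a call lost in 7 of 21 alternatives, and in skin, at -1.54 ± 0.37 (adjusted p = 0.00282), against -1.07 without spleen 1 and 2 (adjusted p = 0.201). Slc16a3, the lactate exporter MCT4, averaged 44.3 ± 9.41 CPM for bone, 53.02 ± 12.5 for muscle, 103.5 ± 6.18 for skin and 45.8 ± 5.76 for heart, against 8.87 ± 2.34 in spleen (SD). Its log2 difference was 2.21 ± 0.23 in bone (adjusted p = 4.78e-07), 2.46 ± 0.24 in muscle (adjusted p = 4.46e-08), 3.63 ± 0.26 in skin (adjusted p = 1.91e-10) and 2.35 ± 0.23 in heart (adjusted p = 7.28e-06). Slc2a1, the glucose carrier GLUT1, differed by 1.05 ± 0.17 in bone (adjusted p = 9.73e-05), 1.05 ± 0.17 in muscle (adjusted p = 6.04e-05), 1.33 ± 0.17 in skin (adjusted p = 2.92e-06) and 0.60 ± 0.18 in heart (adjusted p = 0.032). Its heart call was lost without heart 1 (adjusted p = 0.0845), heart 2 (0.106), spleen 5 (0.0717) or spleen 6 (0.0676), within 1 naming style (0.0694) and with upper-quartile scaling (0.0643).

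Of 27 tested genes among 32 other HIF pathway and hypoxia target genes, 10 were higher and 1 lower in bone, 12 higher and 3 lower in muscle, and 12 higher and 3 lower in skin. In heart 23 were tested, with 10 higher and 1 lower. All 4 shares lay above those of all genes called. Epas1, another HIF alpha subunit, averaged 18.1 ± 5.24 CPM for bone, 20.8 ± 6.00 for muscle, 28.3 ± 5.93 for skin and 31.04 ± 11.5 for heart, against 3.35 ± 1.59 in spleen (SD). Its log2 difference was 2.65 ± 0.38 in bone (adjusted p = 2.78e-05), 2.85 ± 0.39 in muscle (adjusted p = 7.42e-06), 2.82 ± 0.40 in skin (adjusted p = 8.96e-06) and 3.26 ± 0.34 in heart (adjusted p = 1.53e-05). Arnt2, a relative of Arnt, differed by 3.08 ± 0.38 in bone (adjusted p = 8.77e-05), 3.43 ± 0.39 in muscle (adjusted p = 2.22e-05), 3.22 ± 0.40 in skin (adjusted p = 4.08e-05) and 2.94 ± 0.26 in heart (adjusted p = 3.74e-06). Ndrg1, a stress gene induced by low oxygen, differed by 2.52 ± 0.32 in bone (adjusted p = 6.83e-05), 2.52 ± 0.32 in muscle (adjusted p = 4e-05), 3.48 ± 0.34 in skin (adjusted p = 1.97e-06) and 1.56 ± 0.29 in heart (adjusted p = 0.00238). Rora, a nuclear receptor, differed by 2.25 ± 0.17 in bone (adjusted p = 2.87e-09), 3.03 ± 0.17 in muscle (adjusted p = 1.31e-11), 3.22 ± 0.17 in skin (adjusted p = 3.25e-12) and 3.22 ± 0.23 in heart (adjusted p = 8.14e-07). Lower genes included Hmox1, the inducible heme oxygenase, at -2.02 ± 0.49 (adjusted p = 0.00388) in muscle. Of 43 companion gene and tissue pairs that the naming rule takes, 23 kept their call in every alternative run.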

How the data were processed

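RNA of sorted Tregs was purified with RNeasy Plus Micro and made into Ovation Solo libraries from 1 ng, per the labels. The authors deposited raw read counts per gene. The submitters' processing notes name GRCm38, STAR, featureCounts and limma without versions, and the strand setting and the handling of reads with several matches are not stated there. Counts were filtered (filterByExpr by group), scaled (TMM) and tested with edgeR 4.0.16 in R 4.3.3 (robust quasi-likelihood, group plus naming style, Benjamini-Hochberg over 15617 genes for bone, muscle and skin, 15025 for heart over spleen and 15926 for heart over other tissues). The fits used 15, 9 and 18 libraries. DESeq2 1.42.0, limma-voom (limma 3.58.1), other scalings, filters and sets of libraries were alternatives. The script was tested on simulated counts. Levels are TMM-scaled CPM over 18 libraries, and lengths are merged exons of GENCODE M21, which held 45143 of 46078 gene IDs. Per-library values are given for members past adjusted p 0.05 with a log2 difference of at least 1 against spleen in any tissue, and of each companion list up to 3 higher and 3 lower genes per comparison could be named. Members and lists were chosen with earlier results of these data known.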

Additional observations from a re-analysis of the deposited data

Results flagged for a closer look

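A difference between a pair of injured tissues passed edgeR's quasi-likelihood test for 13 member and tissue pairs, which are given here as log2 differences with the libraries whose absence ended the call. In bone over skin, Hk2 differed by -1.60, Aldoa by -0.88 (lost without bone c, adjusted p = 0.0585), Pkm by -0.86, Hif1a by -1.45 and Mxi1 by -1.04. Ldha differed by -0.68 in bone over skin, a call lost without bone b (adjusted p = 0.0906), bone c (0.0776), skin 1 (0.052) or skin 2 (0.0803). Pdk1 differed by 1.06 in bone over skin, and by 0.75 in bone over muscle, where the call was lost without bone b (adjusted p = 0.113), bone c (0.0582) or muscle 1 (0.0629). Without spleen 1 and 2, where spleen 3 alone links the naming styles in skin comparisons, bone over skin was -1.38 for Hk2 (adjusted p = 0.0834), -1.16 for Hif1a (0.072) and 0.50 for Pdk1 (0.334), and these calls were lost. Mxi1 differed by -0.80 in bone over muscle, and its calls in bone over muscle and bone over skin were lost in the fit over all 18 libraries (adjusted p = 0.091 and 0.231).

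In heart over bone, Egln3 differed by 0.89 (lost without bone b, adjusted p = 0.0769, or bone c, 0.0503) and Ero1l by 0.69 (lost without bone b, 0.155, or heart 2, 0.191). In heart over skin, Pkm differed by -0.93 (lost without heart 1, adjusted p = 0.0937). P4ha1 differed by -0.93 in heart over skin and lost the call in 10 of 18 alternatives, among them each fit without 1 of the 3 skin libraries (adjusted p = 0.0635 to 0.181) or 1 of the 3 heart libraries (0.0583 to 0.097). Groups did not overlap in any of the 13 pairs. Since the pairs were taken because they passed the test on these libraries, this adds no support. The share of all genes without overlap was not counted. Among the 6 spleen libraries, no member had a library standing apart from the others by Dixon's test, out of 34 tested, where chance alone marks about 1 in 20.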

How the results depend on the processing

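Against spleen, 54 of 72 called member and tissue pairs kept their call in every alternative run, 18 lost it in at least 1, and 9 of 64 pairs not called gained one in at least 1. Leaving out 1 library at a time, bone had 13 to 17 members called, muscle 16 to 21, skin 19 to 23 and heart 12 to 15. Between tissues they numbered 1 to 2 in bone over muscle, 5 to 8 in bone over skin, 0 to 1 in muscle over skin, 0 to 4 in heart over bone, 0 in heart over muscle and 1 to 4 in heart over skin, and 1 of 13 called pairs kept its call throughout. Without the style term, members called were 15 in bone over skin, 6 in muscle over skin and 7 in heart over skin. Of all genes, 2814 and 749 of 15617 were called in bone and muscle over skin, and 742 of 15926 in heart over skin. The main fits called 1267, 205 and 379 genes in the same order. Without spleen 1 and 2, which hold the most ribosomal RNA, members called were 4 in bone over skin and 4 in heart over skin. All genes called were 705 of 15323 and 638 of 15820. Without the low-count filter, members called were 2 in muscle over skin, 5 in heart over skin and 4 in heart over bone. All genes called were 618 of 26382, 909 of 27486 and 1466 of 27486 in the same order. DESeq2 gave 4 members in muscle over skin, with 427 of 15617 genes, and 7 in heart over skin, with 672 of 15926. Libraries of 1 style gave 1 member in heart over bone, with 960 of 16404 genes. For heart over skin, heart 1 is the one heart library of the Endo style, so no count is given. The fit over all 18 libraries gave 1 member in bone over muscle. The causes of these shifts were not tested. Upper-quartile scaling moved the median of all genes in skin over spleen by -0.10, and made 47.8% of calls in heart over spleen higher, against 58.2% with TMM scaling.

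Of 18 same-numbered pairs of libraries, 0 deviated together with a correlation over 0.1 (-0.13 to 0.10). Only replicates 1 to 3 were compared. Pairs of unlike number, and pairs matched by library name, were not correlated. The check therefore cannot decide whether libraries share a batch or animals. With the replicate number as a block in place of the style, 14 members were called in muscle, 21 in skin and 12 in heart over spleen, with 8 in muscle over skin and 8 in heart over skin. Of all genes, 4707 of 15176 were called in muscle, 4278 of 15176 in skin and 2582 of 15025 in heart over spleen. Muscle over skin had 1090 of 15176 and heart over skin 806 of 15565. The main fits called 3984, 4342, 3043, 205 and 379 genes in the same order. Differences over spleen in the block fit rest on spleen 1 to 3, which are of the Endo style. No other fitted group carries the numbers of the remaining spleen libraries. Muscle is of the Tregs style, so its differences here mix tissue with naming style. Hif1a differed by 2.03 and Eno1 by 0.29 (adjusted p = 0.172) in muscle over spleen. The heart calls of Bnip3 (0.162), Slc2a1 (0.132) and Pgm1 (0.0755) and the muscle call of Egln1 (0.0759) were lost. Eno1 in muscle over skin turned from 0.03 to -0.56 (adjusted p = 0.0411). That comparison crosses the naming styles, and this fit has no style term. Within spleen, mean Eno1 was 121.6 CPM in the Endo libraries and 80.5 CPM in the Tregs libraries. The effect of the block apart from the loss of the style term was not tested. No block was run for bone, since 2 of its columns carry no number. Spleen 1 to 3 held 5970346 to 7230842 counts and limit what skin comparisons of low genes can show.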
